A study of Mus musculus with 3 samples.

Results

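The interleukin 17 (IL-17) axis was followed in single cells of mouse flexor digitorum longus (FDL) tendon through 7 genes, taken by symbol from the 32285 genes of the deposited counts. These were the cytokine genes Il17a (ENSMUSG00000025929) and Il17f (ENSMUSG00000041872), the receptor genes Il23r (ENSMUSG00000049093), Il17ra (ENSMUSG00000002897) and Il17rc (ENSMUSG00000030281), and the response genes Nfkbiz (ENSMUSG00000035356) and Zc3h12a (ENSMUSG00000042677). There was 1 library per group, each made from 16 pooled tendons, so no difference between groups was tested and every interval below covers counting error only. The library 6 M WT (WT below) came from Scx-Cre-; DTR F/+ mice and 6 M DTR (DTR below) from Scx-Cre+; DTR F/+ mice, so the controls carried the diphtheria toxin receptor (DTR) allele too, and both groups were given 5 injections of diphtheria toxin (DT). By the labels these mice were aged 3 months, and by the methods of the study that was the age at depletion, with harvest at 6 months. The library 21 M B6 (B6 below) came from C57/Bl6 mice aged 21 months without DT. All groups have the strain label C57BL/6J, and mice of both sexes were pooled. Cre was driven by Scleraxis (Scx), a transcription factor of the tendon lineage, and the study names the contribution of this lineage to other tissues as a limit. Tendons of WT were digested for 120 min and those of DTR and B6 for 90 min. Genotype and digestion time thus cannot be told apart between DTR and WT. Between B6 and WT the same holds for age, DT, the DTR allele and digestion time.

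The libraries held 12273 to 16099 cell barcodes and 92707026 to 148149903 unique molecular identifiers (UMIs, each a counted transcript molecule), and 8357 cells of WT, 6554 of DTR and 4798 of B6 passed the filter, with medians of 12328 to 13008 UMIs. Any pair of libraries shared 61 to 76 barcodes, of which 13 to 15 were kept in both. Each cell went to the class whose marker genes scored highest, and the classes are called by those markers (T cell-like and so on). T cell-like cells numbered 120, 313 and 72 (1.44%, 4.78% and 1.5% of kept cells of WT, DTR and B6). Of all 505, 95.2% had a UMI of Cd3g and 83.0% of Cd3e, both of the T cell receptor complex, and in other classes no T cell marker passed 1.54% of cells. Tenocyte-like cells numbered 5063, 2675 and 817 (60.6%, 40.8% and 17.03%), and 98.7% had Fmod and 67.2% Tnmd. Epitenon-like cells, the other large stromal class, numbered 1253, 1160 and 2398 (15.0%, 17.7% and 50.0%), and 97.1% had Cd34 and 94.2% Ccn3. The stromal markers named were less exclusive than those of T cells. In other classes 31.8% of cells had Fmod, 5.70% Tnmd, 24.0% Cd34 and 20.9% Ccn3. The least frequent markers within their own class were Kera (10.4%) for tenocyte-like and Gdf10 (26.3%) for epitenon-like cells. By UMIs of Xist and Y-linked genes, 5104 cells of WT were called female and 1991 male, against 2145 and 3101 in DTR and 2164 and 1711 in B6. The sexes were thus in unequal parts, and values within each called sex stand beside the results they touch.

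IL-17A and IL-17F are related secreted cytokines made by lymphocytes of the type 17 kind, among them γδ T cells that reside in barrier and connective tissues. IL-23, sensed through the receptor chain encoded by Il23r, maintains such cells. Both cytokines act on stromal and epithelial cells through a receptor built from IL-17RA and IL-17RC, which signals through the adaptor Act1 (Traf3ip2) to NF-κB, C/EBP proteins and control of mRNA stability. Nfkbiz encodes IκBζ, a nuclear partner of NF-κB needed for many secondary response genes, and Zc3h12a encodes Regnase-1, an RNase that degrades inflammatory mRNAs and restrains the pathway. Both genes also respond to other signals such as IL-1 and Toll-like receptor ligands.

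RefSeq promoters (build GRCm38.p6) were found for 5 of the 7 genes. Those of the 3 genes whose level was highest in T cell-like cells in every library are shown, because the T cell results below turn on them. Each is the 250 bases before the transcription start, 5′ to 3′ on the gene's own strand. Capitals mark AGGTCA or its reverse complement TGACCT, the core half-site of many nuclear receptors. Il17a lies on the plus strand at chr1:20730655-20730904, Il17f on the minus strand at chr1:20784271-20784520 and Il23r on the minus strand at chr6:67491856-67492105.
Il17a: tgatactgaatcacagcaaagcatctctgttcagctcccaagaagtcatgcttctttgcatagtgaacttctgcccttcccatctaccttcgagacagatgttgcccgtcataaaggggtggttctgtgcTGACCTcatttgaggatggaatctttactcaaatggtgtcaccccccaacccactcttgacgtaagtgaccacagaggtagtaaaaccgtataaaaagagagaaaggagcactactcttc
Il17f: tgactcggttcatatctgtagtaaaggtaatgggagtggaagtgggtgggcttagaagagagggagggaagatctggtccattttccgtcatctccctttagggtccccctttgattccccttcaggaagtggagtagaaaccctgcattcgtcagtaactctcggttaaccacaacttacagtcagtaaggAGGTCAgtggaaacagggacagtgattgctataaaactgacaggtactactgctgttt
Il23r: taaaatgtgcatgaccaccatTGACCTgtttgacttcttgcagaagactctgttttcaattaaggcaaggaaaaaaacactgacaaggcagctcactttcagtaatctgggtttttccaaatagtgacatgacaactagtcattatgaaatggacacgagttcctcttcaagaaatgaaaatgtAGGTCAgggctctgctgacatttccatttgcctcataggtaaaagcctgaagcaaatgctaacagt
The first base of the match lay at -120 in Il17a and at -58 in Il17f, counted from the start site, and at -229 and -66 in Il23r. The promoters of Zc3h12a and Il17rc held none. AGGTCA on either strand occurred in 4607 of 32851 RefSeq promoters of this length (14.0%). A κB consensus, the site type of NF-κB, and GGGAA were also searched. The κB consensus had 0 matches in each of the 5 promoters and occurred in 7.25% of RefSeq promoters. GGGAA had 1, 2 and 0 matches in Il17a, Il17f and Il23r and occurred in 56.2%. A match is a description of the letters and not of binding.

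Il17a transcripts were concentrated in T cell-like cells in every library. In the kept cells 58 Il17a UMIs were counted in WT, 422 in DTR and 6 in B6, which is 6.94, 64.4 and 1.25 UMIs per 1000 kept cells. T cell-like cells held 57 of the 58 UMIs in WT (98.3%, exact 95% binomial interval 90.8 to 99.96), 357 of 422 in DTR (84.6%, 80.8 to 87.9) and all 6 in B6 (54.1 to 100). The library order was thus DTR, WT and B6, whether per kept cell or within T cell-like cells as given next.

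**Figure D1:**
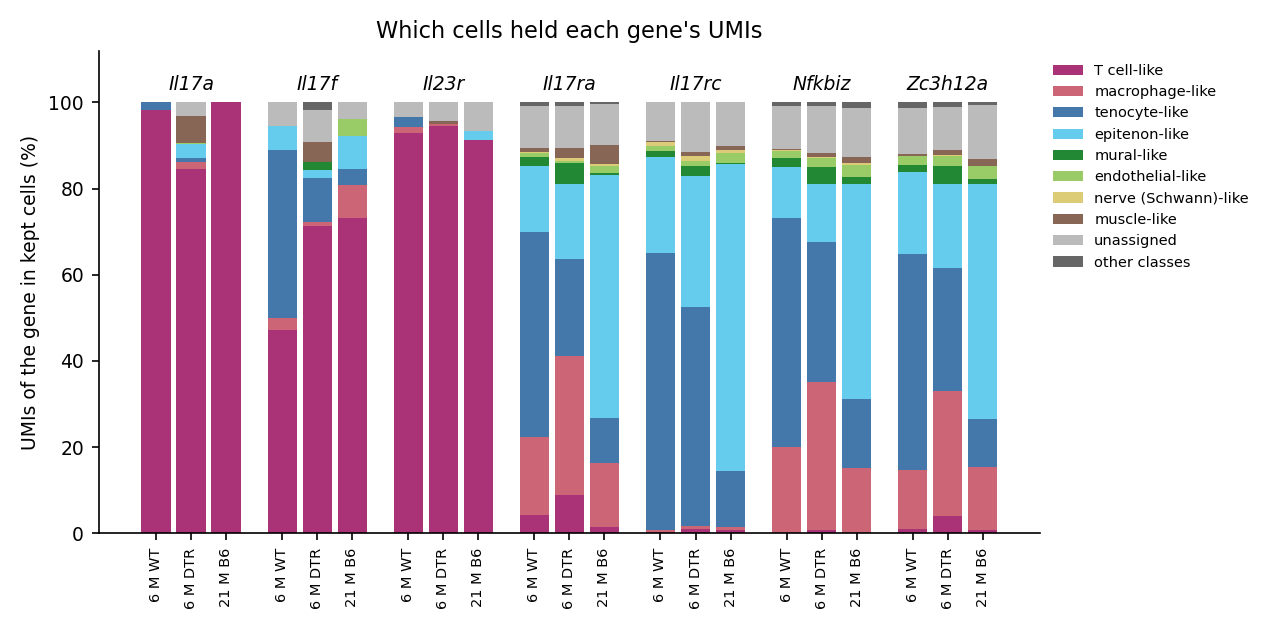
Percent of the UMIs of each of the 7 genes (stacked bars, vertical axis) held by each marker-gated class, for each library along the horizontal axis. Il17a and Il23r UMIs lie mostly in T cell-like cells (84.6% or more), whereas Il17ra, Nfkbiz and Zc3h12a UMIs are spread over stromal and myeloid classes. Il17rc UMIs lie mostly in tenocyte-like and epitenon-like cells, with at most 0.685% in macrophage-like cells.

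The Il17a UMIs of DTR outside the class were examined cell by cell. There were 65 in 15 cells, and 57 of these lay in 7 cells that each had UMIs of at least 4 T cell markers, up to 27 in a single cell placed in the muscle class. The remaining 8 cells had no T cell marker and 1 Il17a UMI each. Among macrophage-like cells, which should lack the gene, 0.288% had an Il17a UMI in DTR and none in the other libraries, at median depths of 16214, 13169.5 and 13743 UMIs against 9889.5, 7921 and 9451.5 in T cell-like cells.

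Within T cell-like cells the level of Il17a was 46.5 CPM (counts per 1000000 UMIs of the class) in WT, 131 CPM in DTR and 8.03 CPM in B6. The ratio of DTR over WT was 2.83 (exact 95% interval 2.13 to 3.81) and that of B6 over WT 0.173 (0.0608 to 0.400). These comparisons share the WT library. Of T cell-like cells, 19 of 120 had an Il17a UMI in WT (15.8%), 82 of 313 in DTR (26.2%) and 3 of 72 in B6 (4.17%). With 2000 UMIs drawn from every cell, which takes depth out of the share, the numbers were 8 cells (6.67%, 2.92 to 12.7), 42 cells (13.4%, 9.84 to 17.7) and 0 cells (0 to 4.99). The thinned intervals of WT overlapped with those of both other libraries, and those of DTR and B6 did not overlap.

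**Figure D2:**
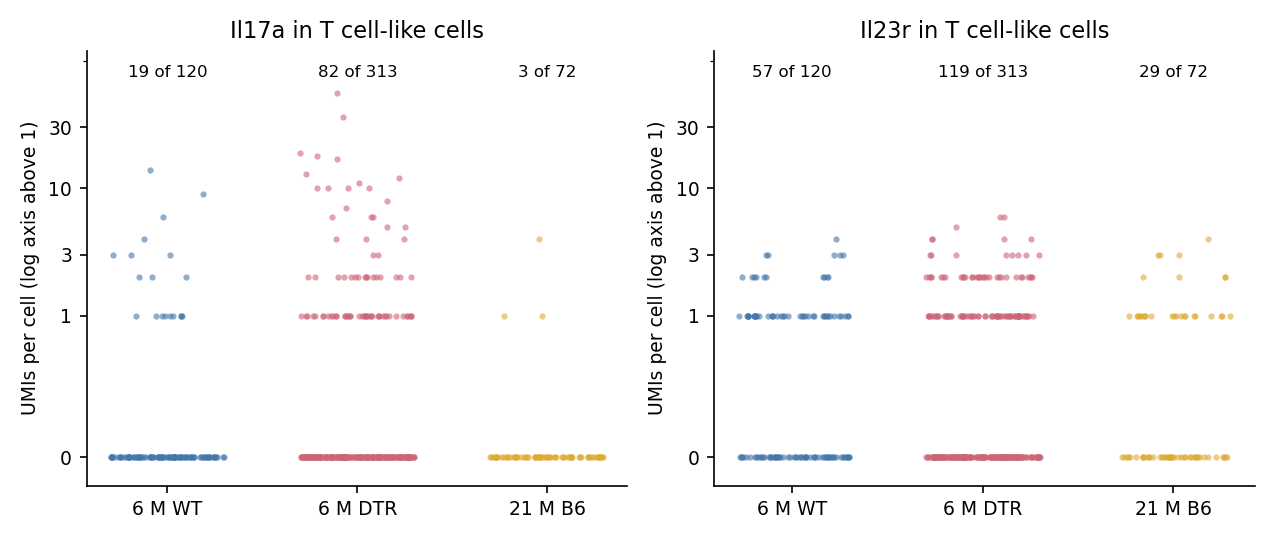
UMIs of Il17a and Il23r per T cell-like cell (vertical axis, symmetric log scale; each point is a cell) in each library (horizontal axis), with the number of cells that have a UMI. Il17a reached 56 UMIs in a cell of DTR, 14 in WT and 4 in B6, while Il23r was found in 57 of 120, 119 of 313 and 29 of 72 cells.

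Il17a counts were uneven over the cells that had them. The cell with the most UMIs held 24.6% of the Il17a UMIs of T cell-like cells in WT, 15.7% in DTR and 66.7% in B6, and the top 5 cells held 63.2% and 40.9% in the first and second of these. A single UMI was found in 9 of 19 positive cells of WT and in 42 of 82 of DTR, and 5 or more UMIs in 3 and 19 cells. Because these UMIs came from few cells, the intervals of the Il17a level, which treat each UMI as independent, are narrower than the spread over cells.

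The level of Il17a was higher in DTR than in WT among cells of either called sex. In cells called female it was 51.1 CPM in WT and 102.98 CPM in DTR (ratio 2.02, 1.39 to 2.94), and in cells called male 46.3 and 145 CPM (ratio 3.13, 1.62 to 6.96), the male WT value resting on 9 UMIs. Macrophage marker genes gave 18.8, 88.7 and 21.4 CPM in T cell-like cells of WT, DTR and B6, with 2, 0 and 3 of the 10 markers at 0. T cell-like cells with no macrophage marker UMI had an Il17a level of 38.7 CPM in WT, 132 CPM in DTR and 8.33 CPM in B6. Haemoglobin and other erythroid genes gave 909, 6875 and 20708 CPM in the same class, and their part in the differences was not tested.

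Il17f, the second cytokine gene, was less concentrated in T cell-like cells than Il17a. There were 36, 108 and 26 UMIs in kept cells of WT, DTR and B6, and T cell-like cells held 47.2%, 71.3% and 73.1% of them. In WT, 14 Il17f UMIs were in 9 tenocyte-like cells, and 12 of the 14 positive cells outside the T cell class had no T cell marker. The other 2 had at least 4 T cell markers and held 7 of the 19 UMIs outside the class, up to 6 in a cell. No other cell outside the class had more than 1 UMI. In T cell-like cells its level was 13.9 CPM (8 cells with a UMI), 28.3 CPM (32 cells) and 25.4 CPM (6 cells). The ratio was 2.04 (1.20 to 3.69) for DTR over WT and 1.83 (0.902 to 3.76) for B6 over WT. The B6 value thus lay on the other side of WT from that of Il17a, although its interval included equal levels and 8 of its 19 UMIs were in 1 cell. The higher DTR level was not seen in cells called female, where Il17f was at 18.1 CPM in WT and 17.6 CPM in DTR (ratio 0.972, 0.443 to 2.09), and in cells called male it was at 0 and 39.3 CPM.

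Without thinning, Il23r was found in a larger part of T cell-like cells than either cytokine gene. T cell-like cells held 93.0%, 94.6% and 91.3% of its 86, 204 and 46 UMIs. The level was 65.2 CPM in WT, 71.0 CPM in DTR and 56.2 CPM in B6, with ratios of 1.09 (0.835 to 1.43) and 0.861 (0.578 to 1.27) over WT. Positive cells made up 47.5%, 38.0% and 40.3% of the class, and 10%, 11.5% and 8.33% after thinning. The thinned share of Il17a given above was larger than that of Il23r in DTR and smaller in WT and B6. Within called sexes the ratio of DTR over WT lay on either side of equality, at 1.42 (0.991 to 2.04) in female and 0.684 (0.395 to 1.26) in male cells. No difference in Il23r between libraries was larger than counting error, and ratios up to the bounds of these intervals were not detectable at this depth.

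Of the 7 genes, 6 had at least 10 CPM in T cell-like cells of WT or DTR, and 3 of them (Il17a, Il17f and Nfkbiz) were 2-fold or more higher in DTR and none lower. Over all 8003 genes at that level 3.75% were higher and 1.54% lower by this measure. Between B6 and WT, 1 of 6 (Il17a) was 2-fold or more lower and none higher, against 10.5% and 3.37% of all 7861 genes.

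T cell-like cells were divided by their receptor genes into γδ-like (at least 3 markers such as Trdc and Tcrg-C1, and more than of the αβ list), αβ-like, natural killer (NK) or innate-like and undivided cells. γδ-like cells were the largest group, with 75, 178 and 36 cells (62.5%, 56.9% and 50% of T cell-like cells of WT, DTR and B6). Cd163l1, which encodes the scavenger receptor SCART1 of IL-17-producing γδ T cells, stood at 698, 745 and 874 CPM in them. Tcrg-V6, the γ chain segment of the Vγ6 subset in one of the namings in use, was found in 31, 59 and 14 cells and Tcrg-V4 in 2, 4 and 2.

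Il17a was at 54.6 CPM in γδ-like cells of WT (16 cells with a UMI, 21.3%), 138 CPM in DTR (59 cells, 33.1%) and 2.73 CPM in B6 (1 cell, 2.78%). The ratio of DTR over WT within γδ-like cells was 2.52 (1.81 to 3.58), and that of B6 over WT, which rests on 1 UMI, 0.0500 (0.00124 to 0.294). Il23r was at 82.6, 93.2 and 76.5 CPM in the same cells, with ratios of 1.13 (0.836 to 1.54) and 0.926 (0.572 to 1.46). Il17f was at 11.4, 27.4 and 8.19 CPM, and its ratio for DTR was 2.39 (1.15 to 5.59). αβ-like cells had Il17a at 16.7 CPM in WT (2 cells), 17.004 CPM in DTR (6 cells) and 0 in B6. Undivided T cell-like cells met none of these rules, having too few markers or equal numbers of γδ and αβ markers. They held more Il17a per UMI (84.5, 282 and 20.6 CPM) than γδ-like cells of the same library, in 1, 16 and 2 cells.

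Cells with an Il17a UMI were compared with T cell-like cells without one in the same library, as a description. In DTR Trdc was found in 87.8% of the 82 positive cells and in 59.7% of the 231 others, Cd163l1 in 76.8% and 56.7%, Il23r in 47.6% and 34.6%, and Il17f in 22.0% and 6.06%. In WT, with 19 and 101 cells, Trdc was found in 84.2% and 62.4%, Cd163l1 in 94.7% and 60.4%, Il23r in 57.9% and 45.5% and Il17f in 10.5% and 5.94%.

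Genes could be ranked by the ratio of CPM in cells with over cells without an Il17a UMI in DTR only. Both kinds of cell numbered at least 20 there. Only genes with at least 50 CPM in the cells with an Il17a UMI were ranked, which favours genes high in those cells. Of the ranked genes named below, only Cxcl1 reached 50 CPM in the cells without an Il17a UMI. The intervals treat UMIs of a cell as independent. The ranks thus describe these cells and cannot show likeness to Il17a. Among the 2890 genes ranked, Hspa1a, an inducible heat shock protein 70 gene, came first (9.31, 6.69 to 13.2) and Il17f second (7.84, 4.64 to 13.8). They were followed by 2810403D21Rik (6.71), the chemokine gene Ccl3 (6.23), Hspa1b (5.20), Hbegf (4.50), the chemokine gene Ccl7 (4.35), Pf4 (3.74), the neutrophil chemokine gene Cxcl1 (3.49) and Oasl2 (3.36). Hspa1a and Hspa1b are nearly identical, so reads may be split between them. Hbegf is the mouse gene of the protein family that the DTR transgene belongs to, and whether transgene reads were counted under it was not tested. Pf4 is a macrophage marker of the gate, and the macrophage markers together stood at 159 CPM in the cells with and 63.2 CPM in the cells without an Il17a UMI, in 20 of 82 and 61 of 231 cells. The part of macrophage RNA in this ranking was not tested.

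The list called type 17 programme has 30 genes and also holds genes of other T cell programmes, such as Ifng and Il13. Of the 30, 24 had at least 10 CPM in T cell-like cells of WT or DTR. Their median log2 ratio in DTR was 0.05 against 0.03 over all genes. In DTR 3 were 2-fold or more higher and none lower, against 3.75% and 1.54% of all genes. The 3 were Areg, which encodes the growth factor amphiregulin (17.1 and 129 CPM, ratio 7.54, 4.86 to 12.3), Ifng, the gene of interferon γ (3 and 38 UMIs, ratio 5.72, 1.81 to 28.9), and Irf4, a transcription factor of activated T cells (7.34 and 21.7 CPM). In B6, 3 of 24 were higher and 1 lower than in WT, against 3.37% and 10.5% of all genes. The median was -0.25 against -0.24 over all genes. Csf2, the gene of the cytokine GM-CSF, stood at 4 UMIs in WT and 44 in B6 (ratio 18.0, 6.57 to 69.2), Il13 at 0 and 13 UMIs, Areg at 17.1 and 53.5 CPM and Batf, a transcription factor of T cell activation, at 35.9 and 16.1 CPM. Other cytokine genes of the class did not follow these: Ifng and Il22 each stood at 3 UMIs in WT and 0 in B6, and Tnf at 49.7 and 36.1 CPM. Markers on the pooled list of NK and innate lymphoid cells went in different directions. Gata3 stood at 126 UMIs in WT and 208 in B6 and Il1rl1 at 10 and 35 UMIs. The class held more UMIs in WT (1226170) than in B6 (747389). Areg, given above, is on this list too and was also higher in B6. In contrast, Rora, found in 119 of 120 T cell-like cells of WT, was at 1269 and 933 CPM. Gzma stood at 54 UMIs in 3 cells of WT and at 0 in B6. Ncr1, Klrb1c, Klrd1 and Eomes had at most 7 UMIs in either library. The part of innate lymphoid cells in these counts was not tested.

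Other genes with 2-fold or larger ratios in T cell-like cells of DTR are also abundant in myeloid cells, so the macrophage marker values above stand beside them. Of the 10 genes listed as inducers of type 17 cells, 4 had at least 10 CPM, and Il1b (3.26 and 201 CPM) and Il1a (1.63 and 10.3 CPM) were higher. Of the 28 IL-17 response genes 13 had at least 10 CPM, and 5 were higher, led by Cxcl2, Ptgs2, Tnfaip2 and Cxcl1, and 3 lower, led by S100a9 and Saa1. Beside the counts of both lists, 3.75% of all genes of the class were higher and 1.54% lower. Cxcl2 stood at 78.3 and 1200.2 CPM. Immediate early genes, which respond to cell dissociation as well as to other stimuli, summed to 3953 CPM in WT, 6169 CPM in DTR and 3971 CPM in B6.

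The receptor gene Il17ra was counted in every class, and in stromal cells it was highest in B6. In tenocyte-like cells its level was 19.9 CPM in WT, 14.4 CPM in DTR and 37.5 CPM in B6, so that the ratio was 0.723 (0.651 to 0.801) for DTR and 1.88 (1.67 to 2.11) for B6. In epitenon-like cells it was 22.8, 21.7 and 55.3 CPM, with ratios of 0.95 (0.828 to 1.09) and 2.42 (2.18 to 2.69). Higher levels in B6 than in WT were also counted in macrophage-like cells (57.6 and 76.3 CPM), muscle-like cells (33.3 and 94.3 CPM), nerve-like cells (9.74 and 34.1 CPM) and endothelial-like cells (16.6 and 27.1 CPM). The nerve-like values rested on 6 and 17 UMIs. T cell-like cells (98.7 and 69.6 CPM, ratio 0.705, 0.499 to 0.984) had the opposite order. Mural-like cells (45.5 and 31.7 CPM, ratio 0.696, 0.374 to 1.22) had it too, but with 16 UMIs in B6 and an interval that included equality. T cell-like cells had the highest level of the 8 classes in WT and DTR (98.7 and 74.3 CPM), and muscle-like cells in B6.

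**Figure D3:**
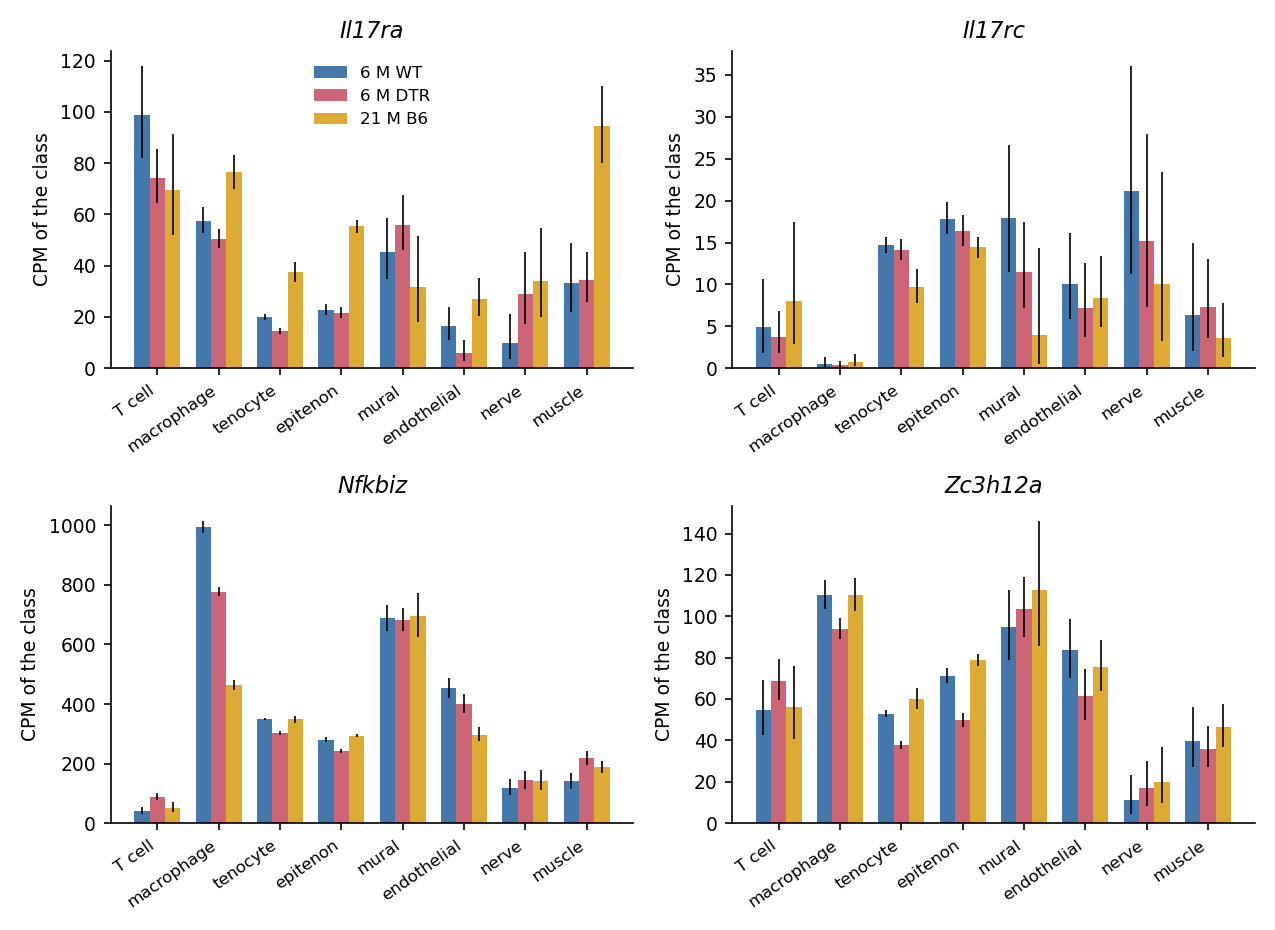
Levels of Il17ra, Il17rc, Nfkbiz and Zc3h12a (vertical axes, CPM of the class; bars start at 0, error bars are exact 95% Poisson intervals) in 8 marker-gated classes (horizontal axes) and 3 libraries (colours). Il17ra is highest in B6 in both tenocyte-like (37.5 CPM) and epitenon-like cells (55.3 CPM), and Il17rc is near 0 in macrophage-like cells of every library.

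Il17rc, the partner subunit, was at or near 0 in macrophage-like cells and similar in level over several other classes. Its level was 14.7, 14.1 and 9.65 CPM in tenocyte-like cells of WT, DTR and B6 and 17.9, 16.3 and 14.4 CPM in epitenon-like cells. Macrophage-like cells had 0.553, 0.413 and 0.728 CPM and T cell-like cells 4.89, 3.68 and 8.03 CPM, the latter from 6, 10 and 6 UMIs. Nerve-like cells had 21.1, 15.2 and 10.04 CPM, mural-like cells 17.9, 11.5 and 3.96 CPM and endothelial-like cells 10.1, 7.20 and 8.39 CPM, each from 24 UMIs or fewer. Tenocyte-like and epitenon-like cells together held most of the UMIs, at 64.5% and 22.1% in WT, 51.0% and 30.4% in DTR and 13.0% and 71.2% in B6. In DTR the ratio was 0.962 (0.862 to 1.07) in tenocyte-like and 0.914 (0.780 to 1.07) in epitenon-like cells, and in B6 it was 0.657 (0.527 to 0.812) and 0.807 (0.703 to 0.927). Il17ra and Il17rc thus lay on opposite sides of WT in B6 stroma. Set against the median gene of these cells, whose ratio was itself below equality (median log2 ratio -0.28 in tenocyte-like and -0.27 in epitenon-like cells), Il17rc of epitenon-like cells (log2 ratio -0.31) lay close to the median.

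Few single cells showed both subunits at this depth. UMIs of both were found in 165 tenocyte-like cells of WT (3.26%), 62 of DTR (2.32%) and 25 of B6 (3.06%), and in 62, 50 and 165 epitenon-like cells (4.95%, 4.31% and 6.88%). The product of the single shares was 3.28%, 2.35% and 2.53% for tenocyte-like and 5.70%, 4.98% and 6.93% for epitenon-like cells, so that co-detection was close to what 2 separately counted genes give. In macrophage-like cells, 4, 3 and 3 cells had both.

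Of the 5 receptor genes of the family, Il17rd stood beside Il17ra and Il17rc in stroma, at 18.6, 20.2 and 20.1 CPM in tenocyte-like and 18.2, 18.8 and 16.5 CPM in epitenon-like cells. Il17re, which encodes the receptor chain for IL-17C, was counted mainly in T cell-like cells, at 49.7, 36.8 and 52.2 CPM there and below 1 CPM in both stromal classes. Il17rb reached at most 6.69 CPM in these 3 classes. Among the ligands, Il17d was stromal, with 39.6, 50.1 and 35.5 CPM in epitenon-like and 10.3, 13.1 and 16.9 CPM in tenocyte-like cells, whereas Il17b, Il17c and Il25 had 0 to 2 UMIs per library in any of the 3 classes.

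Between DTR and WT, 4 of the 7 genes had at least 10 CPM in either stromal class, and none reached 2-fold in either direction. The background was 2.26% higher and 1.6% lower of 7575 genes in tenocyte-like cells, and 0.343% higher and 1.21% lower of 7861 genes in epitenon-like cells. Between B6 and WT, 1 of 4 (Il17ra) was 2-fold or more higher in epitenon-like cells, against 1.77% of 7785 genes, with 1.62% lower. In tenocyte-like cells none of the 4 passed, against 3.22% higher and 2.82% lower of 7382 genes. Il17ra there (log2 ratio 0.91) lay past 2-fold with TMM factors (1.15), in cells low in immediate early counts (1.14) and in cells called female (1.11). In cells called male it was 0.68, under 2-fold. Shares over all genes were not recounted under these settings.

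Nfkbiz was at its highest in macrophage-like cells of WT and DTR and in mural-like cells of B6. Its levels were 995, 777 and 464 CPM in macrophage-like, 688, 683 and 697 CPM in mural-like, 453, 401 and 298 CPM in endothelial-like, 349, 303 and 348 CPM in tenocyte-like and 280, 242 and 294 CPM in epitenon-like cells. T cell-like cells had the lowest levels, at 39.96, 88.3 and 52.2 CPM, and were the class with the largest ratio in DTR (2.21, 1.62 to 3.07). In stroma the ratio of DTR over WT was 0.867 (0.847 to 0.887) in tenocyte-like and 0.863 (0.829 to 0.898) in epitenon-like cells. For B6 it was 0.997 (0.961 to 1.03) and 1.05 (1.02 to 1.08). Its log2 ratios in these classes were -0.19 and -0.35 in cells low in immediate early counts, below equality, and 0.24 and 0.37 with TMM factors. These were the lowest and highest values over the alternatives. The median log2 ratio of all genes was -0.28 in tenocyte-like and -0.27 in epitenon-like cells of B6. Macrophage-like cells of B6 had less Nfkbiz than those of WT (ratio 0.466, 0.447 to 0.485), beside Il1a at 1194 and 131 CPM and Il1b at 960 and 108 CPM in the same cells.

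Zc3h12a was spread more evenly over classes. It stood at 110, 93.8 and 110 CPM in macrophage-like, 94.8, 104 and 113 CPM in mural-like, 71.3, 49.9 and 79.0 CPM in epitenon-like, 54.6, 68.8 and 56.2 CPM in T cell-like and 52.9, 37.6 and 60.04 CPM in tenocyte-like cells. In DTR it was lower than in WT in both stromal classes, with ratios of 0.711 (0.668 to 0.758) in tenocyte-like and 0.699 (0.642 to 0.760) in epitenon-like cells. In B6 the ratios were 1.14 (1.04 to 1.24) and 1.11 (1.04 to 1.18). Both lay below equality in cells low in immediate early counts (log2 ratios -0.20 and -0.34), the lowest values over the alternatives. The highest were 0.44 in tenocyte-like and 0.44 in epitenon-like cells. The medians over all genes of B6 were those given for Nfkbiz. Immediate early genes summed to 10099, 13870 and 17989 CPM in tenocyte-like and 14556, 15432 and 22309 CPM in epitenon-like cells.

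Within called sexes the lower levels in DTR stroma kept their direction and differed in size. Zc3h12a of tenocyte-like cells was at 56.4 CPM in WT and 37.3 CPM in DTR among cells called female, and at 44.8 and 38.7 CPM among cells called male. In epitenon-like cells it was at 74.0 and 47.5 CPM in female and 66.8 and 53.7 CPM in male cells. Nfkbiz of tenocyte-like cells was at 357 and 302 CPM in female and 352 and 305 CPM in male cells. Il17ra of epitenon-like cells, close to equality over all cells, was at 25.2 and 22.2 CPM in female and 17.5 and 20.8 CPM in male cells.

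Over 24 sums of a class in a library, the genes whose log2 level followed that of Nfkbiz most closely among 12141 genes were Ier3 (Pearson r 0.911), Stom (0.908), Tuba1c (0.885), Rabgef1 (0.884) and Ets2 (0.881). For Zc3h12a they were Ifi203 (0.832), the NF-κB subunit gene Nfkb1 (0.814), Mfhas1 (0.812), Mndal (0.806) and the prostaglandin E receptor gene Ptger4 (0.788). Nfkbiz and Zc3h12a had an r of 0.587 with each other. These are descriptions, since sums of 1 library share depth and preparation and the order of classes sets most of each r.

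The 28 IL-17 response genes were lower on balance in stroma of DTR than in WT. In tenocyte-like cells 22 had at least 10 CPM in 1 of the libraries, 9 of these were 2-fold or more lower and 2 higher, and the median log2 ratio was -0.70 against 0.03 over all genes. In epitenon-like cells 8 of 19 were lower and none higher, with a median of -0.79 against 0.000318. The background shares given above are 1.6% lower for tenocyte-like and 1.21% for epitenon-like cells. Lower ratios were also counted in other classes. In macrophage-like cells 7 of 19 response genes were lower and 0 higher, with a median of -0.68. Endothelial-like cells had 3 of 16 lower and 1 higher (median -0.36), and mural-like cells 4 of 18 lower and 5 higher (median 0.10). Shares over all genes were not counted in these classes, so their counts cannot be set against a background.

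**Figure D4:**
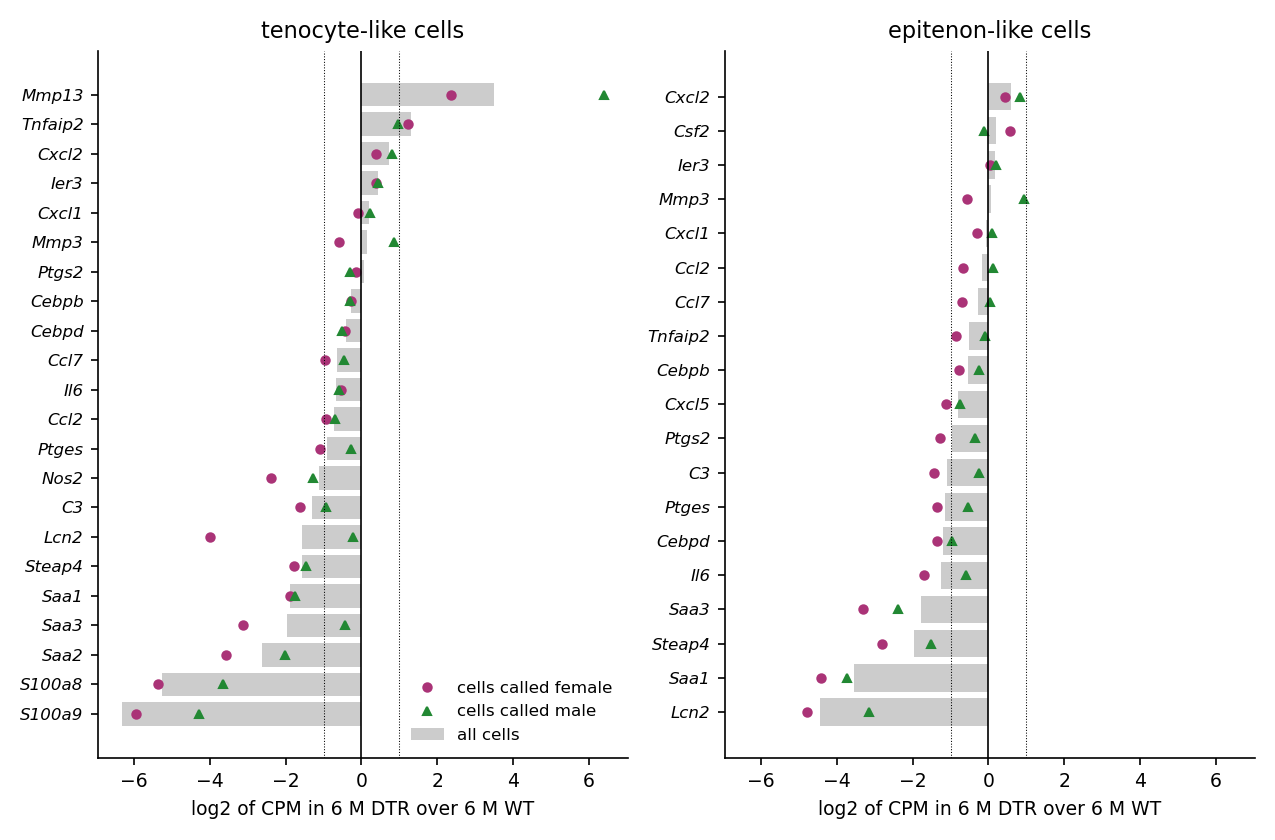
Log2 ratio of CPM, DTR over WT (horizontal axis), of the IL-17 response genes that reached 10 CPM in the class shown, tenocyte-like or epitenon-like (rows), for all cells (grey bars), cells called female (circles) and cells called male (triangles), with dotted lines at a 2-fold ratio. Lcn2 of tenocyte-like cells shows the sexes apart, at -4.00 in cells called female and -0.21 in cells called male.

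Acute phase genes were among the lowest ratios. Saa1, a serum amyloid A gene, stood at 1208 CPM in WT and 326 CPM in DTR in tenocyte-like cells (ratio 0.270, 0.265 to 0.275), and at 54.3 and 4.60 CPM in epitenon-like cells (ratio 0.0847). Saa2 and Saa3 of tenocyte-like cells had ratios of 0.161 and 0.256, and Saa3 of epitenon-like cells 0.293. The last value depended on cells near the class boundary: with the stricter margin Saa3 stood at 28.8 CPM in WT and 16.3 CPM in DTR (log2 ratio -0.82 in place of -1.77), which is under 2-fold. It was -1.18 without the top 5% of Scrublet scores, and within called sexes its ratio was 0.102 (female) and 0.193 (male). The Saa genes are close paralogs, between which reads may be split. Lcn2, which encodes the iron-withholding protein lipocalin 2 and is a common marker of IL-17 signalling, was at 262 and 88.7 CPM in tenocyte-like (ratio 0.339) and 35.9 and 1.64 CPM in epitenon-like cells (ratio 0.0457, 0.0306 to 0.0659). The 10 tenocyte markers together stood at 2054 CPM in WT and 1573 CPM in DTR in epitenon-like cells, against 17675 and 20846 CPM in tenocyte-like cells. The part of tenocyte RNA in the acute phase values of epitenon-like cells was not tested.

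Other lower genes in epitenon-like cells were Steap4, a metalloreductase gene (ratio 0.257), Il6 (0.420) and Cebpd (0.436). In cells called male Il6 (0.665) and Cebpd (0.510) did not reach 2-fold, against 0.305 and 0.391 in cells called female, and Steap4 stood at 0.349 and 0.142. In tenocyte-like cells Steap4 had a ratio of 0.334. The 2 genes that were higher there were Mmp13, the collagenase 3 gene (3.41 and 38.6 CPM, ratio 11.3, 9.85 to 13.1), and Tnfaip2 (328 and 813 CPM, ratio 2.48), the latter named after its value was seen. The Mmp13 ratio was 5.17 (4.33 to 6.17) in cells called female and 84.2 (44.2 to 185) in cells called male, the latter over 9 UMIs in WT. S100a8 and S100a9, which are in the response list and are also markers of neutrophils, had the lowest ratios in tenocyte-like cells (0.0261 and 0.0126). The 6 neutrophil markers together, which include this pair, summed to 33.3, 1.21 and 0.813 CPM in tenocyte-like cells of WT, DTR and B6 and to 9.47, 0.603 and 0.638 CPM in epitenon-like cells. Most of this sum was the pair itself, with 815 and 1388 of the 2286 UMIs in tenocyte-like cells of WT. The neutrophil class held 33, 1 and 2 cells of WT, DTR and B6. The part of neutrophil RNA in the lower response genes was not tested.

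The counts of lower response genes differed between the called sexes. Among cells called female 10 of 23 genes were 2-fold or more lower in tenocyte-like cells and 10 of 19 in epitenon-like cells. Among cells called male the counts were 5 of 21 and 3 of 18. Higher genes numbered 3 and 0 in female and 1 and 0 in male cells. Shares over all genes were not counted within called sexes, so these counts have no background beside them. Lcn2 of tenocyte-like cells was at 309 CPM in WT and 19.4 CPM in DTR in female and at 155 and 134 CPM in male cells. Saa3 was at 819 and 93.5 CPM in female and at 304 and 226 CPM in male cells. Saa1 (1318 and 355 CPM in female, 1077 and 321 CPM in male cells) and Steap4 (299.8 and 87.4 CPM, 319 and 115 CPM) had more alike ratios. The labels do not tie cells to mice, so differences between mice and between sexes cannot be told apart.

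Stroma of B6 gave a different set of ratios over WT. In tenocyte-like cells 4 of 23 response genes were 2-fold or more higher, led by Cxcl5 and Il6, and 6 lower, led by S100a8, S100a9, Nos2 and Lcn2, and the median log2 ratio was -0.20 against -0.28 over all genes. In epitenon-like cells 2 of 19 were higher, Il6 (358 and 836 CPM) and Cebpd (598 and 1738 CPM), and 2 lower, Saa1 (54.3 and 11.9 CPM) and Mmp3 (73.4 and 19.2 CPM), with a median of 0.04 against -0.27. Over all genes 3.22% were higher and 2.82% lower in tenocyte-like cells, and 1.77% and 1.62% in epitenon-like cells. Il6 of tenocyte-like cells was at 118 CPM in WT and 415 CPM in B6. Saa1 and Lcn2 of tenocyte-like cells were thus lower in both DTR and B6 than in WT, whose library is shared by both comparisons.

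Genes between the receptor and the response had fewer 2-fold ratios. Of 29 IL-17 receptor signalling genes, 23 had at least 10 CPM in tenocyte-like cells of WT or DTR and 1 was 2-fold or more lower in DTR, Tnip1 (60.8 and 27.9 CPM), which encodes a restraint on NF-κB. In epitenon-like cells 2 of 23 were lower, Tnip1 (29.5 and 12.7 CPM) and Cebpd (598 and 261 CPM). None was higher in either class. The median log2 ratio was -0.10 in tenocyte-like and -0.08 in epitenon-like cells, against 0.03 and 0.000318 over all genes, of which 1.6% and 1.21% were lower. In B6, Cebpd and Arid5a, an RNA-binding protein gene that stabilises IL-17-induced mRNAs, were higher in both classes, as 2 of 22 and 2 of 24 genes, against 3.22% and 1.77% of all genes, with medians of -0.11 and -0.23 against -0.28 and -0.27. Arid5a stood at 33.0 and 102 CPM in tenocyte-like and 27.2 and 71.5 CPM in epitenon-like cells.

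Of the 14 relatives and regulators of IκBζ and Regnase-1, Nfkbiz and Zc3h12a included, 10 had at least 10 CPM in tenocyte-like cells. Of these, Nfkbie, an inhibitor of NF-κB, was 2-fold or more lower in DTR (26.5 and 10.5 CPM), against 1.6% of all genes. None of 9 passed in epitenon-like cells, against 0.343% higher and 1.21% lower over all genes. In B6, Bcl3, a nuclear IκB protein related to IκBζ, was higher than in WT in tenocyte-like (31.8 and 78.6 CPM) and epitenon-like cells (31.8 and 77.0 CPM). It was 1 of 10 genes in each, against 3.22% and 1.77% of all genes. Of the inducers of type 17 cells, Tgfb1, the gene of transforming growth factor β1, stood at 233, 253 and 254 CPM in T cell-like and 286, 235 and 270 CPM in macrophage-like cells, Il18 was at 25.2, 23.4 and 23.2 CPM in the latter, and Il23a, the IL-23 subunit gene, reached at most 2.42 CPM in any of the T cell-like, macrophage-like and stromal classes.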

How the data were processed

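Single-cell 3′ libraries were made by the authors on the 10x Genomics platform from FDL tendons, 1 library per group. The deposited UMI counts per gene and barcode are not normalized. The matrix headers name Cell Ranger 6.0.1, whereas the submitters' processing notes list Cell Ranger 2.1.1, and the genome build of the counts is not given in the sources used here. No column lay outside the labelled samples.

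The cell filter followed the methods of the study (1000 to 5000 genes, mitochondrial counts up to 10%) and left 8357, 6554 and 4798 cells, the first a few cells under the number the study states. Scrublet (scanpy 1.11.5) called 2, 7 and 1 doublets, too few to have worked, and no doublets were removed.

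Each cell was scored for every class as the mean over its markers of log counts per 10000, capped at the 90th percentile and scaled by the 100 highest cells. It was assigned with a score of at least 0.25 and a margin of 0.1 over the next class. The markers were set first, and the scoring and the omission of erythroid genes from the gate were chosen after seeing the data. The 7 genes and the gene lists were chosen with earlier results of these data known. 844, 676 and 559 cells stayed unassigned.

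Counts were summed per class and library and scaled to CPM of that class. Intervals are 95% and exact: binomial for shares, Poisson for CPM and conditional binomial for ratios. UMIs of 1 cell are not independent, and no test was possible with 1 library per group. Shares of positive cells were also given after thinning to 2000 UMIs, which left out 9, 5 and 1 cells. Lists were described by genes that reached 10 CPM in either library and had a ratio of 2-fold or more. All 7 genes are named, and of each list and comparison at most 6 genes by size of ratio, with exceptions in the response list. Beyond that number, Steap4, Lcn2 and Tnfaip2 were named in tenocyte-like cells of DTR and Saa1 in those of B6. The ranking by Il17a-positive cells took genes with at least 50 CPM in positive cells, in libraries with 20 or more cells of each kind. Genes most like Nfkbiz and Zc3h12a were taken by r of log2(CPM + 1) over sums of at least 50 cells.

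On simulated counts with 200 genes changed 4-fold, 100% were recovered for DTR over WT among 7472 genes of T cell-like, 7185 of tenocyte-like and 7644 of epitenon-like cells, and 97% for B6 over WT in T cell-like cells. Of unchanged genes there, 3.33% passed 2-fold by sampling. The simulated counts were independent Poisson draws without the uneven spread of UMIs over cells. They therefore cannot show the recovery for genes such as Il17a, whose UMIs came from few cells. Alternatives used Seurat 5.3.0 clusters (20 dimensions, resolution 0.1, members and listed genes left out), TMM factors of edgeR 4.0.16, and other filters. Python 3.11.15, numpy 2.4.6, scipy 1.17.1, pandas 2.3.3, matplotlib 3.10.9 and R 4.3.3 were used. Proteomics and histology of the study were not analysed here, and 1 gene of the lists is not reported here.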

Additional observations from a re-analysis of the deposited data

Results flagged for a closer look

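Barcodes that failed the cell filter were not used in any comparison. In DTR they held 15 Il17a UMIs in 7 barcodes, compared with 1 UMI in 1 barcode of WT and 0 in B6. This stood out as a count in data outside the cells analysed, above that of the control library. As a share of the Il17a UMIs over all barcodes, which numbered 59, 437 and 6 in WT, DTR and B6, it was 1.69%, 3.43% and 0%.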

How the results depend on the processing

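No paired analysis was possible because there was 1 library per group, and for the same reason no replicate could be left out. Of the ratios of Nfkbiz, Zc3h12a, Il17ra and Il17rc in tenocyte-like and epitenon-like cells, those whose interval left out equality kept their direction in all alternatives except the 3 named here as reversed, those near equality could take either sign, and the causes were not tested. Settings added after seeing the data were the removal of the top 5% of Scrublet scores, the T cell class by 4 T cell markers, T cell-like cells without a macrophage marker and the recounts of response genes. The T cell-like share of Il17a UMIs, 98.3% in WT and 84.6% in DTR, was 100% and 94.5% with Seurat clusters, 100% and 89.1% without the top 5% of Scrublet scores and 100% and 98.1% by 4 T cell markers. A mitochondrial limit of 5% left 0 Il17a UMIs in B6 and so no share. The share of T cell-like cells with an Il17a UMI was 15.8% in WT and 26.2% in DTR without thinning, and 7.35% in DTR thinned to 1000 UMIs.

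The log2 ratios of CPM follow, with DTR and B6 each over WT. In cells low in immediate early counts, those of B6 were -0.19 (Nfkbiz) and -0.20 (Zc3h12a, reversed from 0.18) in tenocyte-like and -0.35 and -0.34 (both reversed, from 0.07 and 0.15) in epitenon-like cells, and tenocyte-like Il17ra was 1.14. There DTR gave -0.33, -0.59 and -0.73 for Nfkbiz, Zc3h12a and Il17ra in tenocyte-like cells and -0.37 for Nfkbiz in epitenon-like cells. With TMM factors, tenocyte-like cells gave -0.32 and -0.60 for Nfkbiz and Zc3h12a in DTR and 0.24, 0.43 and 1.15 for Nfkbiz, Zc3h12a and Il17ra in B6. Epitenon-like cells of B6 then gave 0.37, 0.44, 1.57 and -0.014 for Nfkbiz, Zc3h12a, Il17ra and Il17rc. A mitochondrial limit of 5% gave 0.11 and 0.31 for Nfkbiz and Zc3h12a of tenocyte-like and 0.12 for Nfkbiz of epitenon-like cells in B6. Without an upper limit on genes Nfkbiz in B6 was 0.050 and 0.14 in these classes. Seurat clusters gave -0.15 and -0.65 for Nfkbiz and Zc3h12a of epitenon-like cells in DTR and 0.011 for Nfkbiz in B6.

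In cells called female, DTR gave -0.24 and -0.60 for Nfkbiz and Zc3h12a of tenocyte-like and -0.31 and -0.64 of epitenon-like cells, and Il17ra of tenocyte-like cells in B6 was 1.11. In cells called male, Zc3h12a of tenocyte-like cells in DTR was -0.21, and epitenon-like cells gave -0.11, -0.32, 0.25 and -0.37 for Nfkbiz, Zc3h12a, Il17ra and Il17rc. Male tenocyte-like cells of B6 gave -0.075, 0.44 and 0.68 for Nfkbiz, Zc3h12a and Il17ra, and Il17ra of epitenon-like cells was 1.61. Response genes at least 2-fold lower in DTR numbered 5 in tenocyte-like and 3 in epitenon-like male cells, against 9 and 8 over all cells. The share over all genes was not counted in male cells alone. At a minimum of 50 CPM the background in T cell-like cells was 1.74% higher and 0.249% lower for DTR and 1.60% and 3.16% for B6. It was 3.86% and 2.17% for tenocyte-like cells of B6, and 0.196% higher for epitenon-like cells of DTR. Of 44 values of each gene over the alternatives, 27 of Nfkbiz, 31 of Zc3h12a, 36 of Il17ra and 42 of Il17rc lay inside the interval of the value reported. Il17a UMIs of B6 numbered 6, which limits every statement on that library's cytokine level.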
